A study of Arabidopsis thaliana with 8 samples.

Results

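In Arabidopsis thaliana, 27 of 27206 nuclear loci were almost free of ribosome footprints in darkness and carried footprints in blue light. They were chosen by their footprint counts: at most 5 counts summed over both dark footprint libraries and at least 60 summed over both blue-light footprint libraries, in the transcript model with the largest length value at each locus. The difference in footprints between dark and blue light is therefore a description here, with no test, and only mRNA, from separate libraries, was tested. For scale, 11842 nuclear loci had at least 60 blue-light footprint counts and 9047 had at most 5 dark ones. The opposite pattern, at most 5 blue-light and at least 60 dark counts, was met by 2 loci, RTFL21 (AT1G67265) and AT4G09530.

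The study measured ribosome footprints and mRNA under a dark and a blue light condition, in 4 groups of 2 libraries each. The labels give no ecotype, tissue, plant age, light intensity or duration, and no label states that the replicates were grown separately. The p-values below thus measure the spread between these libraries, which may be technical. Footprints are the stretches of mRNA shielded by ribosomes from RNase I. The deposited values are whole-number read counts per transcript model, and levels below are given as CPM, counts per 1000000 counted reads of the library.

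A seedling that reaches light stops elongating, builds chloroplasts and makes pigments that screen harmful light. Cryptochromes and phototropins sense blue light, and transcription factors such as HY5, the B-box proteins, the GATA factors and MYB proteins carry the signal to genes of chlorophyll, flavonoid and repair pathways. A footprint count can rise because more mRNA is present or because ribosomes load more densely on each mRNA, so footprint counts are set beside mRNA counts here.

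The footprint libraries held 2888624 to 4919808 counts and the mRNA libraries 688630 to 847469, of which only 331867 to 436399 came from nuclear loci. Between dark and blue light the median nuclear locus with at least 60 counts in each condition moved by -0.24 on the log2 CPM scale in footprints (10528 loci), and in mRNA by -0.12 over 5009 loci with at least 20 counts in each. The duplicated chloroplast loci ATCG00860 and ATCG01280 both held 43540 counts in 1 library, so a read with several matching places can be counted more than 1 time, and near-identical relatives can share reads.

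Together the 27 loci held 39 and 44 footprint counts in the dark libraries and 2257 and 1769 in blue light. In CPM, they took 13.5 and 13.9 in the dark and 459 and 472 in blue light. Their combined footprint level was 33.9 ± 1.03 times as high in blue light (SD propagated from the replicates, n = 2 per group). The replicates of each condition lay close to each other, and every one of the 27 loci was counted in both blue-light libraries.

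**Figure D1:**
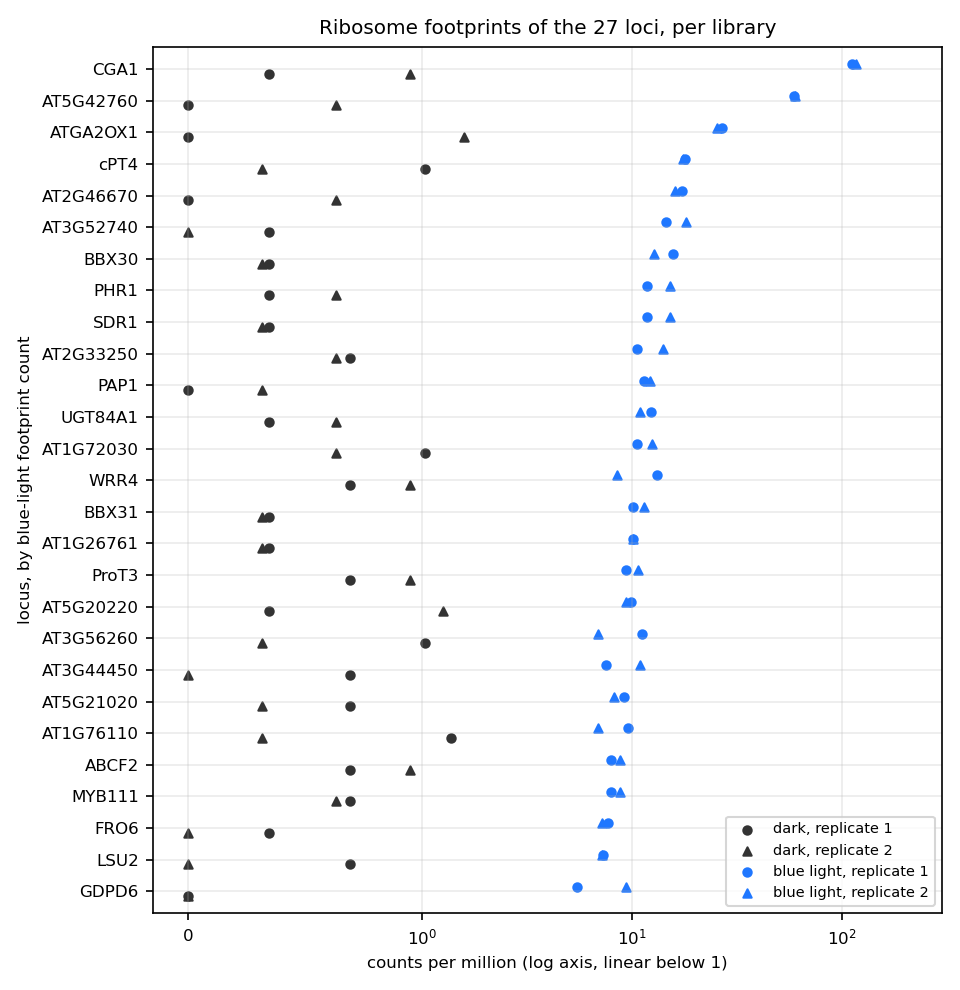
Footprint level of each of the 27 loci in CPM, on a log axis that is linear below 1, with 1 symbol per library; grey marks dark and blue marks blue light. All blue-light symbols lie to the right of the dark symbols of their locus, an order that the limits on summed counts favour, and CGA1 and AT5G42760 stand highest.

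The replicates were also read one by one, as a description, since the choice of the 27 loci used both. With the limits halved in replicate 1 (at most 2 dark and at least 30 blue-light counts), 34 loci were found, 22 of them among the 27. In replicate 2 all 34 had a higher CPM in blue light than in the dark, with a median of 41 blue-light counts (17 to 439) and a median of 2 dark counts, the highest being 13. With the limits applied to replicate 2, 20 loci were found, 17 of them among the 27, and all 20 were higher in blue light in replicate 1. Of the 34 and the 20 loci, 14 and 14 also met the halved limits in the replicate not used to choose them. Over all nuclear loci with a footprint, both blue-light libraries lay above both dark ones in 19.6%, and no share per replicate was computed. The replicates may be technical, so this reading is no independent support for the choice.

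The locus with the most blue-light footprints encodes a regulator of gene expression. CGA1 (AT4G26150), a cytokinin-responsive GATA factor that promotes chloroplast development, had 1 and 3 footprint counts in the dark libraries, against 550 and 439 in blue light. It alone supplied 24.6% of the blue-light footprint counts of the 27 loci. Its footprint level was 0.648 ± 0.427 CPM in the dark and 115 ± 3.85 CPM in blue light (mean ± SD, n = 2), which is 173 times the dark level with a 95% counting interval of 67.2 to 635 (exact; intervals here cover counting error only).

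BBX30 (AT4G15248) and BBX31 (AT3G21890) encode small proteins with a B-box zinc finger, a family known from light signalling. BBX30 had 1 count in each dark footprint library and 77 and 48 in blue light. BBX31 also had 1 in each dark library, and 50 and 43 in blue light. These sister genes had nearly the same profile, and a further B-box gene, BBX32 (AT3G21150), missed the dark limit by 1 count, with 3 in each dark library and 312 and 249 in blue light.

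The MYB factors PAP1 (AT1G56650), an activator of anthocyanin synthesis, and MYB111 (AT5G49330), an activator of flavonol synthesis, were also among the 27. PAP1 was counted 0 and 1 time in the dark footprints and 56 and 46 times in blue light. MYB111 was counted 2 times in each dark library and 39 and 33 times in blue light. Both were therefore read by ribosomes at a low level in blue light, at 11.8 ± 0.638 and 8.37 ± 0.626 CPM.

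By the words in reference symbols and synonyms, 5 of the 27 loci (18.5%) matched terms for transcription factors, namely CGA1, BBX30, BBX31, PAP1 and MYB111. Of all 11842 nuclear loci with at least 60 blue-light footprints, 353 (2.98%) matched the same terms. Hormone response terms matched 2 members, ATGA2OX1 and CGA1 (7.41%, against 1.25%). Transporter terms matched 1, ProT3 (3.70%, against 1.98%), and defence terms 1, WRR4 (3.70%, against 1.01%). Every other class had no match. Among these, kinases and receptors, chloroplast and photosynthesis proteins and cell wall proteins held only 3.34%, 1.88% and 1.60% of the 11842 loci. Their absence among 27 loci is therefore not read as a result. The match reads names only, and 11 of the 27 loci have no symbol, so the shares count named genes and not functions.

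In light signalling, AT3G52740 and AT3G44450, both on the light signalling list used here and without a symbol in the reference table, belonged to the 27. AT3G52740 had 1 and 0 dark footprint counts and 72 and 68 in blue light, and AT3G44450 had 2 and 0 in the dark and 37 and 41 in blue light. Of the other 16 loci of that list, both blue-light footprint libraries lay above both dark ones in 9 and below in 7, among 19.6% of nuclear loci above and 43.4% below in CPM. With the median shift removed these counts were 11 and 5. HY5, the bZIP factor of photomorphogenesis, went from 7.53 to 86.6 CPM and was thus well above the dark limit.

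Enzymes and transporters made up most of the other named members. ATGA2OX1 (AT1G78440), a gibberellin 2-oxidase that inactivates this growth hormone, had 0 and 5 dark footprints and 132 and 95 in blue light. PHR1 (AT1G12370), the photolyase that repairs pyrimidine dimers in DNA with the energy of light, had 1 and 2 in the dark and 58 and 57 in blue light. Hormone inactivation and DNA repair were thus both represented by an enzyme that was almost unread in the dark.

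UGT84A1 (AT4G15480), a glucosyltransferase of phenylpropanoids, had 1 and 2 dark footprints and 61 and 41 in blue light. cPT4 (AT5G58770), a cis-prenyltransferase that makes isoprenoid chains, had 3 and 1 in the dark and 88 and 66 in blue light. SDR1 (AT3G61220), a short-chain dehydrogenase/reductase, had 1 in each dark library and 58 and 57 in blue light. These enzymes of specialised metabolism had blue-light footprint levels of 11.7 to 17.8 CPM.

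FRO6 (AT5G49730), a ferric reductase, had 1 and 0 dark footprints and 38 and 27 in blue light. FRO7 (AT5G49740), its neighbour and close relative, had 4 in each dark library and 113 and 73 in blue light, which placed it past the dark limit. The 2 genes had the same direction, and whether they share reads was not tested. ProT3 (AT2G36590), a proline transporter, had 2 and 3 in the dark and 46 and 40 in blue light.

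GDPD6 (AT5G08030), a glycerophosphodiester phosphodiesterase, was the only member with no dark footprint, against 27 and 35 in blue light, at least 14.4-fold higher when 3 counts over both dark libraries are taken as the floor. LSU2 (AT5G24660), named for its response to low sulfur, had 2 and 0 in the dark and 36 and 27 in blue light. WRR4 (AT1G56510), an immune receptor for white rust, had 2 and 3 in the dark and 65 and 32 in blue light. ABCF2 (AT5G09930), an ATP-binding cassette protein of the F family, had 2 and 3 in the dark and 39 and 33 in blue light. These members lay near the lower blue-light limit, as did most others: 23 of the 27 loci had under 150 blue-light counts and the median was 97.

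The remaining loci have no symbol and are given by their identifiers. AT5G42760 was second only to CGA1, with 0 and 2 dark footprints and 293 and 225 in blue light. AT2G46670 had 0 and 2 in the dark and 85 and 60 in blue light. Whether it shares reads with another locus such as PRR9 (AT2G46790), a clock gene with 3 and 4 in the dark and 224 and 176 in blue light, was not tested, so its footprint and mRNA values are uncertain. AT2G33250, AT1G72030, AT1G26761, AT5G20220, AT3G56260, AT5G21020 and AT1G76110 had 2 to 5 summed dark counts and 73 to 105 summed blue-light counts. AT5G21020 was the shortest of all at a length value of 33, a column that resembles codons, while WRR4 was the longest at 998 and the median was 320.

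Per length the order changed. CGA1 still led with 33.4 blue-light footprint CPM per 100 units of length, followed by AT5G21020 at 26.4, AT5G42760 at 16.9, BBX30 at 13.2 and AT3G52740 at 12.5. FRO6 at 1.02 and WRR4 at 1.09 were lowest. The median of the 27 loci was 4.68, against 6.71 over the 11815 other nuclear loci with at least 60 blue-light footprints.

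Loci beside the limits are listed next. Just inside the dark limit, 7 members had 5 summed counts each. Those with the fewest blue-light counts were ABCF2, AT1G76110, AT5G20220 and ProT3, with 72, 73, 84 and 86, and ATGA2OX1 had the most at 227. Just outside, with 6, the loci with the most were BBX32 at 561, ASG4 (AT1G01520) at 326 and AT5G65030 at 70. Just inside the blue-light limit were GDPD6 at 62, LSU2 at 63 and FRO6 at 65, and just outside were AT5G17670 at 59, FBA5 (AT4G26530) at 57 and AT1G26790 at 54.

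The mRNA libraries asked whether message followed footprints. It did so for CGA1 and was not seen to for the other members. CGA1 mRNA was counted 1 and 3 times in the dark and 22 and 50 times in blue light, so the groups did not overlap. It rose by 4.49 ± 0.65 on the log2 scale (SE, adjusted p = 2.48e-05, edgeR quasi-likelihood F-test with Benjamini-Hochberg adjustment over 7822 loci). The value was 3.62 without rna_blue replicate 2, 3.92 without rna_dark replicate 1, 5.09 without rna_blue replicate 1 and 5.33 without rna_dark replicate 2, and it passed in each case (largest adjusted p = 0.0264, edgeR). By counts its mRNA ratio was 20.1, with an interval of 7.51 to 75.7.

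Of the 27 loci 5 had enough mRNA to be tested, and 1 of these, CGA1, was called higher and 0 lower, among 2.85% of all tested loci called higher and 1.05% lower. At an unadjusted p under 0.05 there was also only CGA1, and the DESeq2 Wald test called CGA1 (adjusted p = 8.65e-05) and not ATGA2OX1 (adjusted p = 0.761), and gave no adjusted p for the other 3. The tested members had a median log2 change of 0.51, which is the value of PHR1, against 0.03 over all tested loci. CGA1 passed the count filter only through its blue-light libraries, and the PHR1 value was -0.71 without rna_blue replicate 1. The median of these 5 loci is therefore no measure of a shift of the members. A member that did not pass was not shown to be unchanged, since the median SE over all tested loci was 0.51 on the log2 scale.

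ATGA2OX1 had the most mRNA of the 27 loci, with 34 and 25 counts in the dark and 27 and 48 in blue light. The groups overlapped, and its log2 change of 0.74 ± 0.39 did not pass (adjusted p = 0.437, edgeR). Its message was thus counted in the dark at a level of 35.6 ± 6.45 CPM while ribosome footprints numbered 5. The mRNA ratio by counts was 1.42 (0.990 to 2.03), beside a footprint ratio of 31.7 (13.4 to 98.5).

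AT5G42760 had 15 and 13 mRNA counts in the dark and 9 and 7 in blue light, so both blue-light libraries lay below both dark ones. Its log2 value of -0.44 ± 0.60 did not pass (adjusted p = 0.873, edgeR). Its footprints went the other way by 181-fold (49.8 to 1496). PHR1 had 8 and 16 mRNA counts in the dark and 22 and 5 in blue light, with a log2 value of 0.51 ± 0.59 (adjusted p = 0.837, edgeR) that turned to -0.71 without rna_blue replicate 1 and was 1.11 without rna_blue replicate 2, 0.09 without rna_dark replicate 1 and 1.02 without rna_dark replicate 2. AT5G20220 had 17 and 14 in the dark and 11 and 15 in blue light, with 0.13 ± 0.51 (adjusted p = 0.976, edgeR). That value was -0.26 without rna_blue replicate 2 and -0.06 without rna_dark replicate 2, and neither gene had separate groups.

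The other 22 members had fewer mRNA counts than the filter asked for. Without that filter 26 members were fitted, and again CGA1 was the only one called (smallest adjusted p of the others 0.798, edgeR). BBX31 had no mRNA count in any library, and MYB111 had 2, both in blue replicate 1. PAP1 had 3 and 1 mRNA counts in the dark and 3 and 2 in blue light, BBX30 had 10 and 0 in the dark and 4 and 3 in blue light, and AT3G52740 had 8 and 1 in the dark and 6 and 9 in blue light. None of these 5 genes had mRNA counts that separated the conditions. AT3G44450 had 0 and 1 mRNA counts in the dark and 3 and 1 in blue light, which separate the groups only in CPM.

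**Figure D2:**
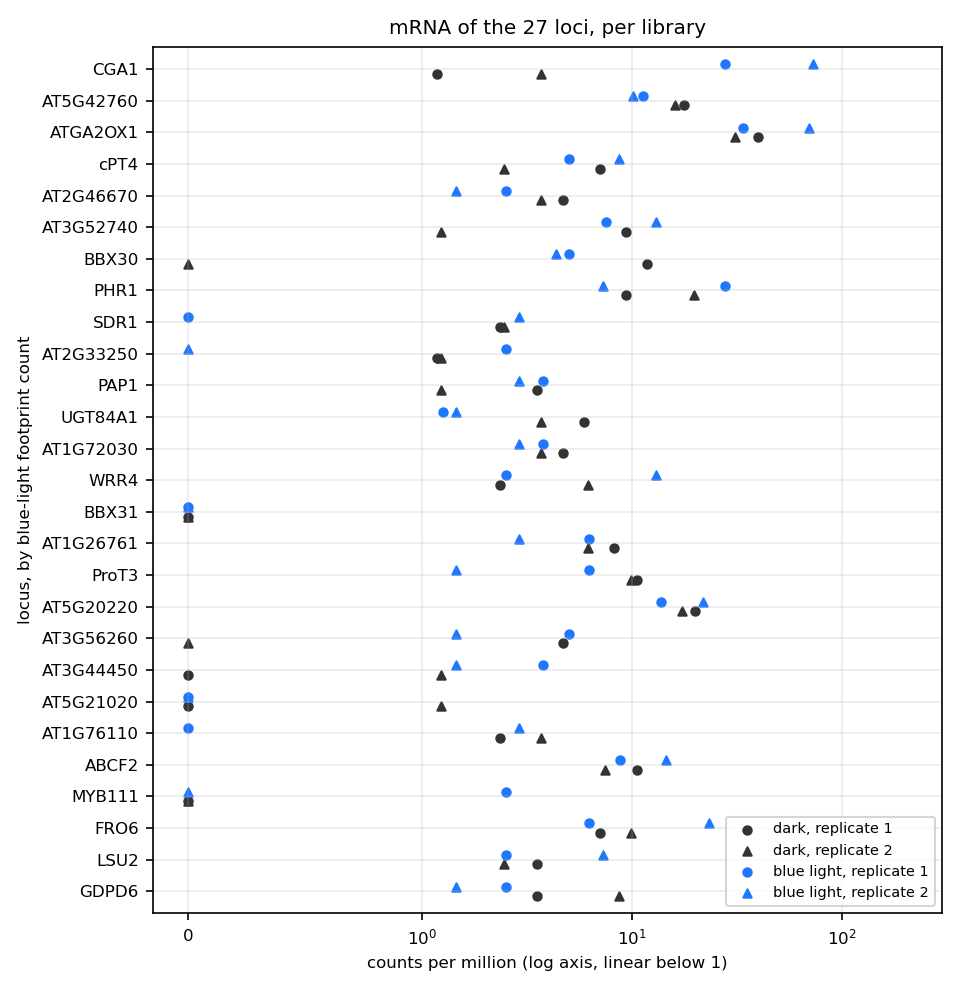
mRNA level of the same 27 loci in CPM, on a log axis that is linear below 1, with 1 symbol per library and the order of loci kept from the footprint plot. Dark and blue-light symbols overlap at most loci, and CGA1 is the only one with a wide gap.

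Across the 27 loci the mRNA count over all 4 libraries had a median of 13 and went from 0 to 134. Among the 26 loci with any mRNA count, both blue-light libraries lay above both dark ones in CPM in 2, CGA1 and AT3G44450, and below in 5, namely AT5G42760, AT2G46670, UGT84A1, ProT3 and GDPD6. Over all nuclear loci with an mRNA count, 14.2% lay above and 21.1% below, so both counts were near or under the background. In the other 19 the groups overlapped.

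At least 1 mRNA count was found in the dark at 25 of the 27 loci, and in both dark libraries at 21. Such counts are common, since 25239 of 27206 nuclear loci had an mRNA count in dark or blue light. Of 5495 nuclear loci without a footprint, only 20.4% had no count in any mRNA library. The share of all loci counted in the dark alone was not computed, so these counts do not set the members apart. Summed over the 27 loci, mRNA held 163 and 133 counts in the dark and 153 and 199 in blue light, or 192 and 165 against 193 and 289 CPM. The ratio of the means was 1.35 ± 0.41 (SD propagated, n = 2 per group), so its distance from 1 was smaller than the spread between replicates. Without CGA1 the sums were 162 and 130 against 131 and 149 counts, a ratio of 1.08 ± 0.24. The footprints of these 26 loci were 26.9 ± 0.51 times as high in blue light. That footprint ratio is largely set by the rule that chose the loci, so setting it beside the mRNA ratio is no test.

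Footprints and mRNA can also be set against each other locus by locus. Counting intervals for both ratios were available for 24 loci. The footprint ratios come from the counts that chose the loci, so they are large by that choice, and how often they exceed the mRNA ratios is no test. The mRNA interval lay wholly above 1 only for CGA1 and included 1 for the other 24 of 25 loci that had one.

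**Figure D3:**
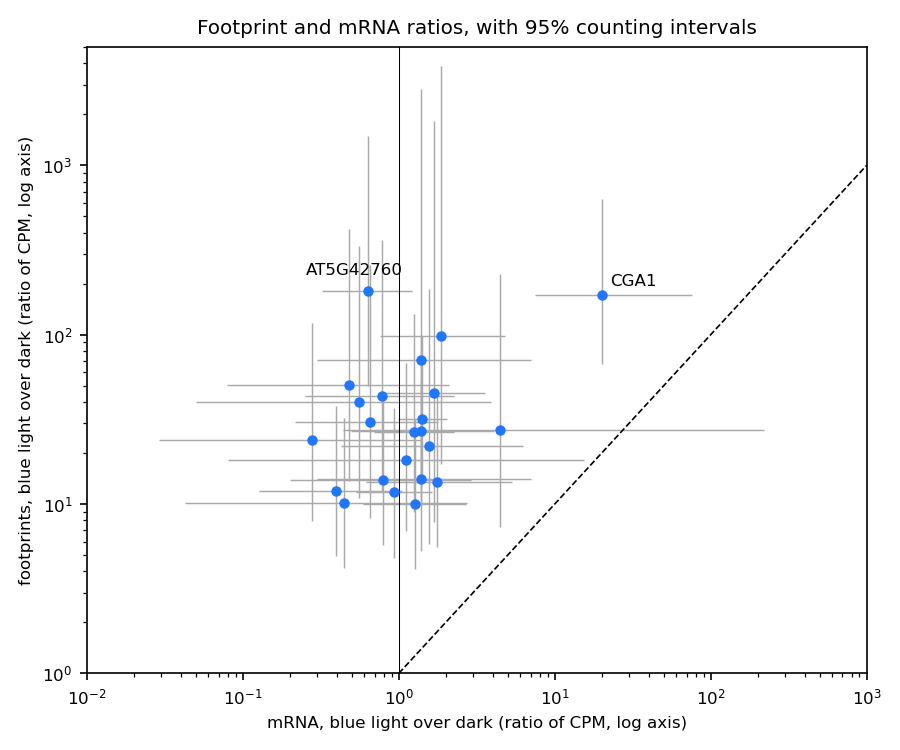
Footprint ratio against mRNA ratio, blue light over dark, for the 23 loci with a ratio above 0 in both assays; axes are logarithmic, bars are 95% exact counting intervals and the dashed line marks equal ratios. All points lie above the line, most stand near an mRNA ratio of 1, and CGA1 stands apart at 20.1.

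Summed over the 27 loci, there were 0.280 footprint counts per mRNA count (not scaled for library depth) in the dark and 11.4 in blue light. Over the other nuclear loci with at least 60 blue-light footprints the same quotient was 14.9 and 21.8. The limits of the rule largely set the low dark quotient of the 27 loci and its rise, so this contrast is no test. Library depth also differed between dark and blue light. Few dark footprints beside counted message were also found elsewhere in the table. Of 2037 nuclear loci with 40 to 80 dark mRNA counts, the range that holds ATGA2OX1, 9.87% had at most 5 dark footprints and the median was 197. Of 4710 loci with 20 to 39, the range of AT5G42760, AT5G20220 and PHR1, 17.5% had at most 5 and the median was 85.

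Some mRNA was also counted at loci where no footprint was found. Per 100 units of length, mRNA of the 27 loci had a median of 1.59 CPM in the dark and 1.40 in blue light. At 5088 protein-coding nuclear loci without a footprint in any library the medians were 0.974 and 0.868, with upper quartiles of 2.17 and 2.04. In the dark 9 of the 27 loci lay above that upper quartile and 8 lay below the median of the unread loci. At 4144 loci with 60 to 150 blue-light footprints and more than 5 dark ones the medians were 1.68 and 1.42. The medians of the 27 loci lay above those of the loci without footprints, while 18 of the 27 did not exceed the upper quartile of the latter in the dark, and the part of this level in the flat mRNA ratios was not tested.

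**Figure D4:**
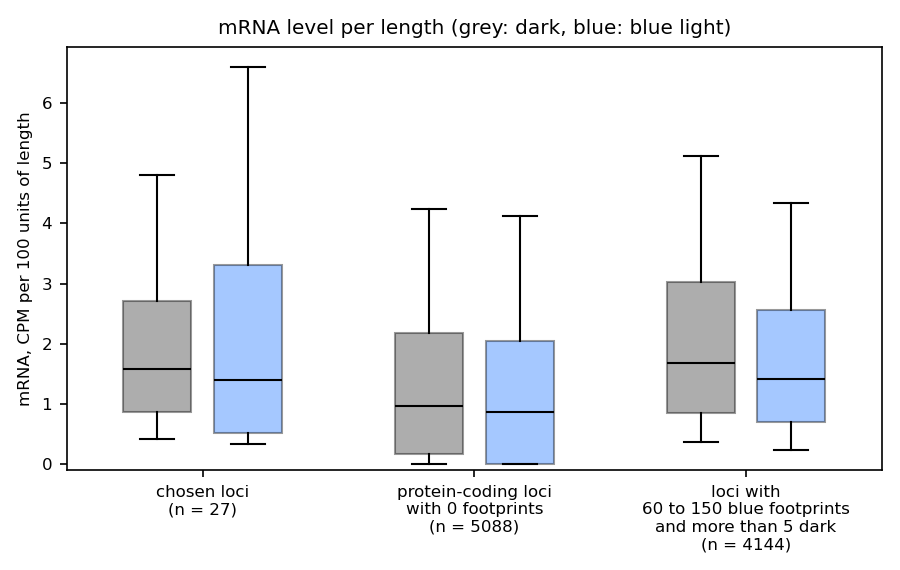
mRNA level in CPM per 100 units of the length column, for the 27 chosen loci, protein-coding loci without any footprint, and loci with a similar blue-light footprint count that were read in the dark; boxes give the quartiles and median, and whiskers the 10th and 90th percentiles. The boxes of the 3 classes overlap in both conditions.

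Loci somewhat above the dark limit were counted as well. There were 42 nuclear loci with 6 to 30 dark footprints and a blue-light sum at least 12 times as large. Of 13 that could be tested in mRNA, 4 were called higher and 0 lower (edgeR), among 2.85% and 1.05% of all tested loci. These were STH (AT2G31380), a B-box protein, at a log2 change of 2.997 ± 0.46, TT5, chalcone isomerase, at 4.28 ± 0.89, RUP2 (AT5G23730), a repressor of ultraviolet-B signalling, at 2.58 ± 0.57 and AT2G41040 at 2.63 ± 0.67. STH passed with any library left out, but TT5 did not without blue mRNA replicate 1 or 2 (adjusted p = 0.414 and 0.219), RUP2 not without blue replicate 1 (0.143), and AT2G41040 not without blue replicate 1 or dark replicate 2 (0.615 and 0.0862, edgeR). All 4 called loci had under 10 mRNA counts in each dark library and passed the count filter only through their blue-light libraries. The filter and the footprint choice thus favour higher calls here, so 4 of 13 is not read against the share of all loci. The summed mRNA of all 42 loci was 265 and 270 CPM in the dark and 471 and 473 in blue light, a ratio of 1.76. Whether these loci differ from the 27 in how mRNA moved was not tested.

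The other genes of the pathways to which members belong were counted next, beside 19.6% of nuclear loci with footprints above and 43.4% below in blue light, and 2.85% and 1.05% of tested mRNAs called higher and lower. Among 9 other chloroplast regulators, 7 had higher footprints in both blue-light libraries and 0 lower (9 with the median shift removed), and in mRNA 3 of 7 tested were called higher and 0 lower. GNC, the sister factor of CGA1, was already read in the dark, at 29.3 CPM of footprints against 137 in blue light, and its mRNA rose by 1.96 ± 0.54 on the log2 scale (adjusted p = 0.0325, edgeR). GLK2, a factor of chloroplast development, rose by 2.93 ± 0.55 in mRNA (adjusted p = 7.21e-04, edgeR). SIG5, which directs the RNA polymerase of the chloroplast to its promoters, rose by 4.79 ± 0.74 (adjusted p = 5.37e-05, edgeR). Dark mRNA counts were 9 and 5 for GNC, 5 and 4 for GLK2 and 1 and 1 for SIG5. These 3 genes thus passed the count filter only through blue light, which favours higher calls. GNC lost its call without blue mRNA replicate 1 or dark replicate 2 (adjusted p = 0.271 and 0.269), at a log2 change of 1.55 without the latter, and SIG5 without blue replicate 2 (0.119).

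Against the same shares of all loci, footprints of 14 other B-box factors were higher in 7 and lower in 4, and in mRNA 2 of 6 tested, STO and STH, were called higher and 1, BBX21, lower. The call of STO was lost without any of the 4 mRNA libraries (adjusted p from 0.0783 to 0.235, edgeR). Of 14 other flavonoid enzymes, footprints were higher in 7 and lower in 0, and 2 of 7 tested mRNAs, TT4 and TT5, were called higher. Of 9 other flavonoid regulators, 5 were higher in footprints (6 with the median shift removed) and 1, MYBL2, lower. The 5 include PAP2 and MYB11, which had 0 dark counts and only 1 and 2, and 1 and 3, in blue light. These are too few counts to read. In mRNA 0 of 3 tested flavonoid regulators were called, with median log2 value 0.52. MYB12, which like MYB111 activates flavonol synthesis, had 0 in both dark footprint libraries and 9 and 11 in blue light, under the limit of 60. In the light signalling list 1 of 10 tested mRNAs, RUP2, was called higher and 0 lower. STH, TT4, TT5 and RUP2 had under 10 mRNA counts in each dark library and passed the count filter only through blue light.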

How the data were processed

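Footprints and mRNA were each measured in 2 dark and 2 blue-light libraries. The deposited files give whole-number counts per transcript model, not normalized. Build TAIR10 and the tools TopHat2 2.0.9, Bowtie2 2.1.0 and CASAVA 1.8 are listed, without roles, in the submitters' processing notes; the counting tool is not given in the sources used here. A length column, another deposited value in the authors' files that is identical in all 8, resembles codons. It chose 1 of the models at each of 27416 loci. Symbols came from a TAIR10.1 RefSeq table by locus tag (26719 matched, 10376 with a symbol).

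The members and lists were chosen with earlier results of these data known. Of 183 names on the lists, 176 are in that table. Named were the members with most footprints or mRNA, list members, those passing the mRNA test and those beside the limits; other members were then named for completeness, as were genes near the limits.

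mRNA was tested with edgeR 4.0.16 in R 4.3.3 (TMM, filterByExpr at a minimum count of 10, quasi-likelihood F-test, two-sided, threshold 0.05). On simulated counts, with 50 loci per size, it recovered 10% of log2 changes of 1 and 68% of changes of 2. Changes of 3 and 4 were recovered at 100%, and 11 of 7822 loci were falsely called. Most changes of 1 on the log2 scale would thus be missed. The simulated loci were only those that passed the filter, with a common dispersion of 0.052. The recovery therefore does not apply to the members under the filter. The SE is the log2 change divided by the square root of F. Ratios use pooled CPM with 95% exact intervals (scipy 1.17.1); counting intervals cover counting error only. Alternatives included DESeq2 1.42.0, other filters, scalings and limits, a replicate block and leaving out libraries.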

Additional observations from a re-analysis of the deposited data

Results flagged for a closer look

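In 5 of the 27 loci mRNA in both blue-light libraries lay below both dark libraries while the footprints lay above, and the difference between the assays was not tested. The mRNA ratio of blue light over dark by counts was 0.637 for AT5G42760, 0.478 for AT2G46670, 0.279 for UGT84A1, 0.394 for ProT3 and 0.335 for GDPD6. Each counting interval includes 1, and 21.1% of nuclear loci with an mRNA count had this order in mRNA.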

How the results depend on the processing

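CGA1 was the 1 member called in mRNA under each of 11 alternatives, including DESeq2, no filter on low counts (26 members tested) and the model with the most counts. Its log2 value was between 3.62 and 5.33, with a largest adjusted p of 0.0264. The other 4 tested members stayed uncalled wherever an adjusted p was given; DESeq2 gave none for PHR1, AT5G20220 and AT5G42760. Over all 5, 52 of 55 values kept their sign; with 1 library left out PHR1 went from -0.71 (rna_blue replicate 1) to 1.11, and AT5G20220 from -0.26 (rna_blue replicate 2) to 0.48, with -0.06 without rna_dark replicate 2. With the replicate number as a block 1 member was again called; same-numbered deviations had a correlation of 0.029, so the numbers were not taken to pair libraries. Calls over all loci fell to 54 lower with DESeq2 and to 52 without rna_blue replicate 2, were 128 without rna_dark replicate 1 and 49 without rna_dark replicate 2, against 82 as stated.

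The number of chosen loci depends on the limits. It was 15 with a limit of 3 dark counts, 61 with 10, 62 with a limit of 30 blue-light counts, 7 with 120, and 17 with footprint counts scaled to the mean library total, since the blue-light libraries were deeper. The summed mRNA ratio was 1.08 to 1.62 when a library was left out, and 1.32 to 1.56 under other scalings or without ATGA2OX1. At this depth 22 members did not pass the filter on low mRNA counts.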

Other observations

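PAP1 activates the late anthocyanin enzymes, which were nearly unread in both conditions. In the 2 dark and the 2 blue-light footprint libraries DFR had 0 counts (which allows up to 3 in each), LDOX had 1 in blue replicate 2, UF3GT had 1 in blue replicate 1 and TT19 had 2 in blue replicate 1. The flavonol side was read, with FLS1 at 8 and 6 dark and 106 and 82 blue-light footprints. mRNA was nevertheless counted at LDOX, 14 and 9 times in the dark and 5 and 11 times in blue light, and at UF3GT, 7 and 5 times in the dark and 4 and 0 in blue light. GL3, a bHLH partner of PAP1, had 0 and 2 dark and 22 and 13 blue-light footprints. Its mRNA counts were 10 and 6 in the dark and 3 and 0 in blue light. Other listed flavonoid regulators did not share this order. EGL3 had 12 and 4 dark and 12 and 10 blue-light footprints, and TT8 had 0 in each library. TTG1 had 25.3 footprint CPM in the dark and 26.2 in blue light, with overlapping groups.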
